A study of Homo sapiens with 12 samples.

Results

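The DUSP, Sprouty and SPRED feedback genes described here are DUSP1, DUSP4, DUSP5, DUSP6, DUSP10, SPRY2, SPRY4, SPRED1, SPRED2 and SPRED3. They were taken by symbol from a table of normalized read counts, where they are 10 of 27106 genes, and all 10 passed the filter on low values that left 13924 genes for testing. The table covers 12 RNA-seq libraries from IMR90 hTERT cells, a human lung fibroblast line carrying telomerase, in which tamoxifen activates the oncogenic fusion protein RasERT2. All cells were also given doxycycline to induce a hairpin RNA. The comparisons follow these transcripts as Ras drives the cells out of division, with and without knockdown of the interleukin-1 receptor.

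The libraries form 6 groups of 2. The shScr cells carry a scramble hairpin and the shIL1R cells a hairpin against the receptor, and each was sampled at day 0 (growing), day 4 and day 10 (senescent) of Ras induction. The labels give 0.5 ug/ml doxycycline and 200 nM tamoxifen or ethanol, without saying which samples had ethanol. The series used 2 hairpins against the receptor, and the labels do not say which library carries which. Nor do they say whether replicates are separate cultures, so p-values measure only the spread between these libraries, which may be technical. In bulk RNA, fewer cells of a kind and less RNA per cell cannot be told apart.

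Oncogenic Ras signals through the RAF, MEK and ERK kinases, and active ERK switches on genes that hold the pathway back. The DUSP genes here encode MAP kinase phosphatases, which remove the activating phosphates from ERK, p38 or JNK. Sprouty proteins act near the receptor and RAF, and SPRED proteins bring neurofibromin, which turns Ras off, to the membrane. Strong induction of such inhibitors is a known feature of Ras-induced senescence in fibroblasts.

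The targeted gene was looked at first, as a check of the labels. IL1R1, the signalling receptor of interleukin-1, had 1239.6 to 1580.1 normalized counts in the 6 shScr libraries. In shIL1R cells the growing libraries held 731 and 378, the day 4 libraries 272 and 86.4 and the senescent ones 295 and 279.9, so the genotypes did not overlap on any day. The log2 difference was -1.54 ± 0.42 (SE), -3.27 ± 0.42 and -2.28 ± 0.42 on days 0, 4 and 10 (limma, adjusted p = 0.281, 0.0205 and 0.0102). Recovered library sizes ran from 24140324 to 30127727 reads, with 1 read worth 0.834 to 1.20 normalized counts. The 9 fibroblast markers summed to between 436215 and 667656 normalized counts per library, and the 5 epithelial markers to between 1.90 and 10.8, with KRT5 and KRT14 at 0.

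Markers also moved with the days. Of the 9 fibroblast markers, 2 rose and 4 fell in shScr cells from day 0 to day 10 (limma, adjusted p below 0.05). Among all tested genes 32.5% rose and 31.3% fell. The fibroblast marker COL6A1 moved by 1.82 log2 units and COL3A1 by -1.26. The 5 endothelial markers (CDH5 at 0) summed to 32.7 to 49.6 normalized counts per library in growing cells and 359 to 706 in senescent cells. TIE1 made up 199 to 539 of the latter. The 5 leukocyte markers summed to 4.17 to 13.5 and 13.5 to 156, but LAPTM5 alone passed the filter, with 0 to 3.59 in growing and 6.77 to 142 in senescent cells. The other 4 leukocyte markers were at 9.44 or less in every library, with CD3E at 0. Proliferation genes, 7 in all, summed to 44669 to 53980 when growing and 1318 to 3857 when senescent. Their part in the members' changes was not tested.

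Promoter sequences were looked up because most members moved together after Ras induction. RefSeq promoters (GRCh38.p14) matched 8 of the 10 members; DUSP4 and DUSP5 have no entry. The 250 bases before the start site were searched on both strands for TGACGTCA (the cyclic AMP response element, CRE), TGANTCA (AP-1), CCGGAAG (ETS), GCGNGGGCG (EGR), TATAAA, the CArG box and the NF-kB motif. The sequences below are those of the gene with the largest rise at day 4 in shScr cells (DUSP6), the member whose libraries differed most (DUSP1), both Sproutys and SPRED3, each 5′ to 3′ on the gene's strand with motif matches in capitals. They lie at chr5:172771196-172771445 (minus strand, DUSP1), chr12:89352502-89352751 (minus, DUSP6), chr13:80341127-80341376 (minus, the first of 3 SPRY2 starts), chr5:142324248-142324497 (minus, SPRY4) and chr19:38389541-38389790 (plus, the downstream one of the SPRED3 starts).
DUSP1: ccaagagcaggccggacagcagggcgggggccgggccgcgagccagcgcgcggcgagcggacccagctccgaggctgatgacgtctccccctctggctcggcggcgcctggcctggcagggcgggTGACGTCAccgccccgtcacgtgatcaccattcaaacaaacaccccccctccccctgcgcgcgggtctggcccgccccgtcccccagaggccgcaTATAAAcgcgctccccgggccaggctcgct
DUSP6: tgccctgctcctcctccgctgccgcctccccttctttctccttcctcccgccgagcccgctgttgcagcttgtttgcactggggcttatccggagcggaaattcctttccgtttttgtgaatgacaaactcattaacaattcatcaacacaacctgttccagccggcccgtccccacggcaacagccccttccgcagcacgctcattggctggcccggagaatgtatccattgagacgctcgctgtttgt
SPRY2: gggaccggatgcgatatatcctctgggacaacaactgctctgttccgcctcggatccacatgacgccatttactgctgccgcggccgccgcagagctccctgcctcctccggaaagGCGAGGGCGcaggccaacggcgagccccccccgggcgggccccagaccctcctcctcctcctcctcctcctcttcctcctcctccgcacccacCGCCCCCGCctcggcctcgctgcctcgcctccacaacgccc
SPRY4: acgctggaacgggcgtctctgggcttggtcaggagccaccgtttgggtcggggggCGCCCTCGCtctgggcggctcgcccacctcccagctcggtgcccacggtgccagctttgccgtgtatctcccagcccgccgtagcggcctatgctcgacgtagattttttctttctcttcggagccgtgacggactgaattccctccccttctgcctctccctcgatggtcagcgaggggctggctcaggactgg
SPRED3: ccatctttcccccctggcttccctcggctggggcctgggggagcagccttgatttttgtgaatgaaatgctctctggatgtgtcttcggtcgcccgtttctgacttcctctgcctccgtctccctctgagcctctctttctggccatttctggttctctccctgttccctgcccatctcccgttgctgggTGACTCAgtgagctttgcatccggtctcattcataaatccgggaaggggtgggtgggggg

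The DUSP1 window held a CRE beginning 125 bases before the start, a motif in 1.65% of 35116 promoters of this length, and TATAAA 30 bases before it (10.7% of promoters). SPRY2 held EGR matches 134 and 41 bases before its first start, and SPRY4 one 195 bases before its start, a motif in 8.41% of promoters. SPRED3 held an AP-1 match 60 bases before its downstream start (6.57% of promoters). Windows that are not printed held matches too. SPRED3 had a pair of overlapping NF-kB matches 175 and 174 bases before its upstream start (5.21% of promoters). SPRED2 had TATAAA 31 bases before its second start. No match overlapped another in the 5 printed windows. None of the 7 motifs was found in the windows of DUSP6, DUSP10 or SPRED1. A match describes letters, not binding.

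By day 4 of Ras induction in shScr cells, 8 of the 10 feedback genes had risen and none had fallen, where 19.4% of all tested genes were called higher and 38.3% in either direction (limma, Benjamini-Hochberg adjusted p below 0.05). DUSP6 rose most in these cells, 6.02-fold, and SPRED1 least, 1.36-fold. The median log2 change of the members was 1.48, against -0.0053 over all tested genes. In shIL1R cells 7 of the 10 rose and none fell (20.1% of genes higher, 40.4% either way), with a median of 1.25 against -0.014. Fold changes are on the log2(normalized count + 1) scale, which understates changes of low genes.

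At day 10 the picture had split by gene. In shScr cells 8 members stood above day 0 and none below (32.5% of genes higher, 63.8% either way). Against day 4, however, only DUSP4 had risen further, while SPRY4 and SPRED1 had fallen (44.1% of genes called either way). In shIL1R cells 7 members were above day 0 and 1 was below (30% and 30.3% of genes, 60.3% either way), and against day 4 DUSP4 rose and SPRED1 fell (35.9% of genes either way). Comparisons that share the libraries of a day are given side by side.

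**Figure D1:**
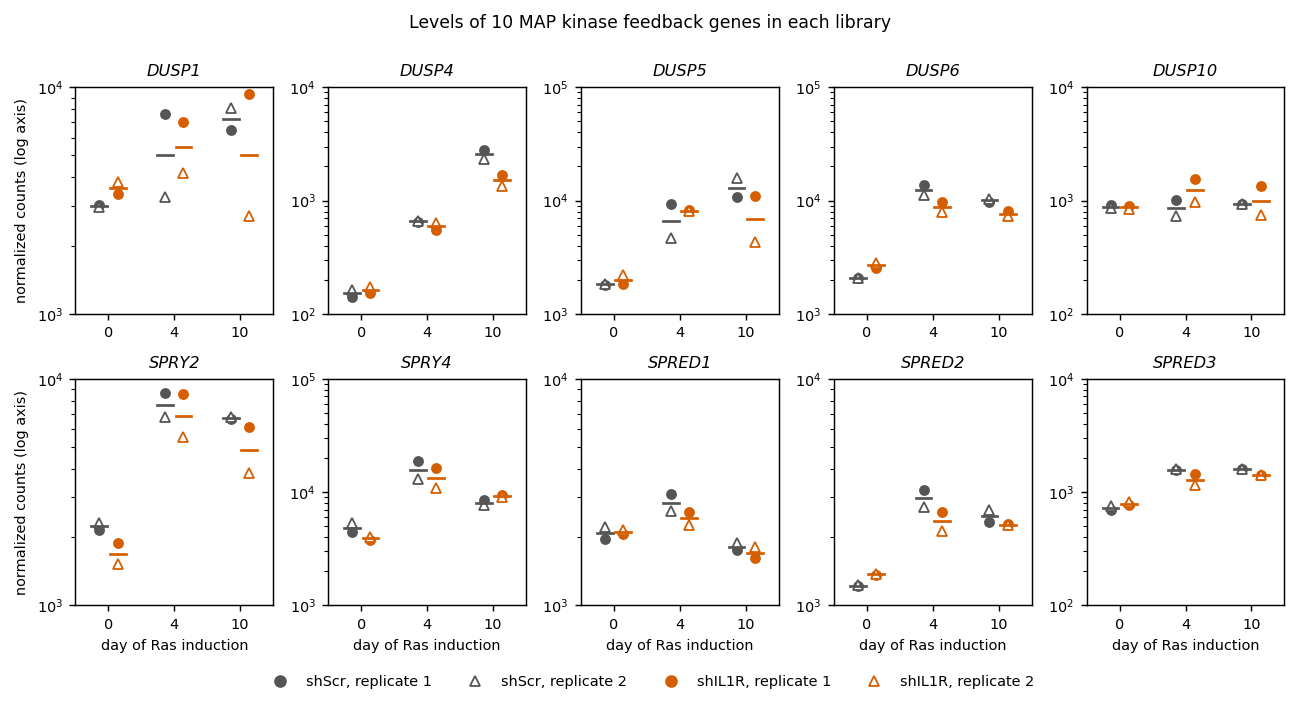
Normalized counts (log axis) of each of the 10 genes against the day of Ras induction (0, 4, 10), for shScr (grey) and shIL1R (orange) cells; filled circles are replicate 1, open triangles replicate 2, and bars the geometric mean of the 2 libraries. DUSP4 climbs at each step, and SPRY4 is highest at day 4 without overlap in both genotypes. The bars of DUSP6, SPRY2, SPRED1 and SPRED2 are also highest at day 4, but the shIL1R libraries of DUSP6 overlap between days 4 and 10. The 2 shIL1R libraries of day 10 lie far apart for DUSP1 (9293 and 2705) and DUSP5 (10907 and 4292).

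DUSP4, an inducible nuclear phosphatase for ERK and JNK, had the largest rise to day 10 among the members. Growing shScr cells held 141 and 164 normalized counts, day 4 cells 645 and 665, and senescent cells 2809.7 and 2331. The shIL1R series ran from 152 and 173 through 555 and 629 to 1697 and 1353. Every library of a later day was above every library of an earlier day in both genotypes. The log2 fold change in shScr cells was 2.10 ± 0.14 (SE) at day 4 and 4.06 ± 0.14 at day 10, a 16.7-fold rise (limma, adjusted p = 3.09e-06 and 7.54e-09). Between day 4 and day 10 it rose by 1.96 ± 0.14 (adjusted p = 5.38e-06). The corresponding values in shIL1R cells were 1.86 ± 0.14, 3.22 ± 0.14 and 1.36 ± 0.14 (limma, adjusted p = 9.5e-06, 5.19e-08 and 7.69e-05).

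DUSP6, the cytoplasmic phosphatase that acts on ERK, reached its high level by day 4. It went from 2063 and 2069 normalized counts in growing shScr cells to 13700.5 and 11278 at day 4 and 9771 and 10339.8 in senescent cells. For shIL1R the pairs were 2525 and 2833, then 9730.5 and 7976, then 8085 and 7254. Both genotypes were well above day 0 from day 4 on, and the shIL1R libraries started above the shScr ones and ended below them. The rise in shScr cells was 2.59 ± 0.12 log2 units at day 4 and 2.28 ± 0.12 at day 10 (limma, adjusted p = 3.72e-07 and 5.87e-08). With the receptor hairpin it was 1.72 ± 0.12 and 1.52 ± 0.12 (adjusted p = 4.82e-06 and 1.41e-06). From day 4 to day 10 the shScr value moved by -0.31 ± 0.12 (limma, adjusted p = 0.0558). TMM scaling, quantile scaling, edgeR, DESeq2 and the fits without shScr day 4 replicate 2 or any one of the 4 shIL1R libraries of days 4 and 10 called this lower, within a range over 23 alternatives of -0.45 to -0.17 (adjusted p = 0.0088 to 0.365).

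DUSP5, a nuclear phosphatase with ERK as its substrate, rose on both days but with a wide spread. Its shScr pairs were 1803 and 1844 normalized counts when growing, 9371 and 4676 on day 4, and 10647 and 15878 when senescent. Those of shIL1R were 1823 and 2192, then 8221 and 8015, then 10907 and 4292. All 8 libraries of days 4 and 10 were above the 4 of day 0, while days 4 and 10 overlapped in shIL1R cells and were separate in shScr cells. The rise to day 4 was 1.86 ± 0.39 log2 units in shScr and 2.02 ± 0.39 in shIL1R cells (limma, adjusted p = 0.00331 and 0.00209), and that to day 10 was 2.83 ± 0.39 and 1.77 ± 0.39 (adjusted p = 7.36e-05 and 0.00222). From day 4 to day 10 the difference was 0.97 ± 0.39 in shScr and -0.25 ± 0.39 in shIL1R cells (limma, adjusted p = 0.0622 and 0.661).

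The step of DUSP5 from day 4 to day 10 turned on single libraries. In shScr cells it was 1.48 without shScr day 4 replicate 1 (limma, adjusted p = 0.0228), and it was also called without either shIL1R day 10 library and with the compared groups fitted alone (adjusted p over 23 alternatives, 0.00917 to 0.422). In shIL1R cells it was called lower, at -0.92, without shIL1R day 10 replicate 1 (adjusted p = 0.0447, against 0.0447 to 0.913 over the alternatives).

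DUSP1, an immediate early gene whose product dephosphorylates p38, JNK and ERK, had the least even replicates. Growing shScr cells held 3017 and 2958 normalized counts, day 4 cells 7631 and 3283, and senescent cells 6499.6 and 8125. The shIL1R pairs were 3385 and 3803, 7049 and 4203, and 9293 and 2705 in the same order. At day 10 the shIL1R pair spanned the day 0 pair, with one library far above it and one below. Of its changes from day 0 the one to day 10 in shScr cells passed, at 1.28 ± 0.50 log2 units (limma, adjusted p = 0.0413), and the one to day 4 was 0.74 ± 0.50 (adjusted p = 0.265). This call was lost with no filter on low values, quantile scaling or DESeq2, and without any one library of shScr day 0, shIL1R day 0 or shScr day 10 (adjusted p over 23 alternatives, 1.64e-05 to 0.166). In shIL1R cells the day 10 change was 0.48 ± 0.50 (limma, adjusted p = 0.42), but 1.37 without shIL1R day 10 replicate 2 (0.0104) and -0.41 without replicate 1 (0.399).

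DUSP10, a phosphatase of p38 and JNK, passed in none of the 6 day comparisons. Its shScr libraries held 910.4 and 862 normalized counts, then 1012 and 736, then 933 and 934 over days 0, 4 and 10. Those of shIL1R held 898 and 845, then 1562 and 976, then 1355 and 738. The shScr pairs stayed close to the growing level, while replicate 1 was the higher shIL1R library on all 3 days, by most on days 4 and 10. The day 4 difference was -0.037 ± 0.27 log2 units in shScr cells and 0.50 ± 0.27 in shIL1R cells (limma, adjusted p = 0.929 and 0.158). The shIL1R day 10 pair decided 3 further calls: without either library the day 4 difference was called (0.50, adjusted p = 0.0487 and 0.0483), without replicate 2 the difference from day 0 to day 10 (0.64, 0.0338), and without replicate 1 the one from day 4 to day 10 (-0.74, 0.0302). Over 23 alternatives the adjusted p ran from 0.0483 to 0.713, from 0.0338 to 0.734 and from 0.0302 to 0.944 for these 3.

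SPRY4, a Sprouty that restrains the step from receptors to Ras and RAF, was highest at day 4. It started from 4465 and 5299 normalized counts in shScr cells, reached 18834 and 12993 on day 4 and was back at 8548 and 7628 on day 10. The shIL1R pairs were 3759 and 4049.6, then 16437 and 10916, then 9432 and 9095. Day 4 was the highest day in both genotypes with no overlap, and day 10 stayed above day 0. SPRY4 rose by 1.69 ± 0.19 log2 units to day 4 in shScr cells (limma, adjusted p = 8.25e-05) and then fell by 0.95 ± 0.19 (adjusted p = 0.00251). The net rise at day 10 was 0.73 ± 0.19 (adjusted p = 0.00656), lost without shScr day 0 replicate 1 (0.0581, against 0.000304 to 0.0581 over 23 alternatives). In shIL1R cells the day 4 rise was 1.78 ± 0.19 and the day 10 rise 1.25 ± 0.19 (limma, adjusted p = 6.97e-05 and 0.000222).

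The fall of SPRY4 after day 4 was less clear with the receptor hairpin, at -0.53 ± 0.19 (limma, adjusted p = 0.0527), and its difference from the shScr fall was not tested. Among other settings, the shIL1R fall was called with TMM scaling, edgeR and DESeq2. It was also called without either shScr day 4 library, and without shIL1R day 4 replicate 2, where it was -0.83. The value ran from -0.83 to -0.24 over 23 alternatives.

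SPRY2, the Sprouty that also binds the ubiquitin ligase CBL, rose and then kept most of its rise. It went from 2153 and 2314 normalized counts in growing shScr cells to 8707 and 6820.5 by day 4, and had 6634 and 6793 when senescent. Its shIL1R pairs were 1879 and 1524, then 8595 and 5518, then 6108 and 3845. All later libraries were above all day 0 libraries, and the shIL1R pairs of days 4 and 10 overlapped. The rise in shScr cells was 1.79 ± 0.23 log2 units at day 4 and 1.59 ± 0.23 at day 10 (limma, adjusted p = 0.000173 and 0.000115). For shIL1R cells these were 2.02 ± 0.23 and 1.52 ± 0.23 (adjusted p = 9.24e-05 and 0.000187). The change from day 4 to day 10 was -0.20 ± 0.23 in shScr cells and -0.51 ± 0.23 in shIL1R cells (limma, adjusted p = 0.517 and 0.111). Among other settings, the shIL1R value was called lower without shIL1R day 4 replicate 2 (-0.83) or shIL1R day 10 replicate 1 (-0.84). It ran from -0.84 to -0.17 over 23 alternatives.

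The 3 SPRED genes did not follow one course. SPRED1, the family member mutated in Legius syndrome, had 1967 and 2222 normalized counts in growing shScr cells, 3089.6 and 2619 on day 4, and 1755 and 1888 in senescent cells. For shIL1R the pairs were 2065 and 2143, then 2594 and 2258, then 1613 and 1816. Both day 10 libraries were below both day 0 libraries of their genotype. SPRED1 rose by 0.44 ± 0.11 log2 units to day 4 in shScr cells (limma, adjusted p = 0.00881) and fell by 0.64 ± 0.11 from there to day 10 (adjusted p = 0.000922), ending at -0.20 ± 0.11 from day 0 (adjusted p = 0.135). With the receptor hairpin the day 4 difference was 0.20 ± 0.11 (limma, adjusted p = 0.168), and SPRED1 fell by 0.50 ± 0.11 from day 4 (adjusted p = 0.0055) to end 0.30 lower than day 0, at -0.30 ± 0.11 (adjusted p = 0.0366).

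Several of these small SPRED1 changes rested on single libraries. The shScr rise to day 4 lost its call when either first replicate of the compared pairs was left out (adjusted p over 23 alternatives, 0.00223 to 0.0921). The shIL1R fall from day 4 lost it with the compared groups alone or without shIL1R day 4 replicate 1 (0.000706 to 0.0541). The shIL1R fall from day 0 lost it, among other settings, with no filter, with the compared groups alone and without either shIL1R day 0 library or shIL1R day 10 replicate 1 (0.014 to 0.165), and quantile scaling called the shScr one, at -0.29 (0.0334 to 0.515).

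SPRED2 and SPRED3 rose by day 4 and stayed up. SPRED2, which also restrains Ras at the membrane, held 1215 and 1231 normalized counts in growing shScr cells, 3230.4 and 2724 on day 4, and 2332 and 2648 on day 10. Its shIL1R pairs were 1368 and 1378, then 2574 and 2142, then 2279 and 2271. SPRED3, the relative whose KIT-binding region is not functional, held 703 and 752, then 1564 and 1606, then 1614 and 1597 in shScr cells, and 766 and 812, then 1436 and 1165, then 1427 and 1409.7 in shIL1R cells. For both genes all libraries of days 4 and 10 were above all of day 0.

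On day 4 SPRED2 had risen by 1.28 ± 0.11 log2 units in shScr and 0.77 ± 0.11 in shIL1R cells, and SPRED3 by 1.12 ± 0.10 and 0.71 ± 0.10 (limma, adjusted p = 1.28e-05, 0.000354, 1.74e-05 and 0.000356). By day 10 SPRED2 stood 1.02 ± 0.11 above day 0 in shScr cells and 0.73 ± 0.11 in shIL1R cells (adjusted p = 1.15e-05 and 0.000172). SPRED3 stood 1.14 ± 0.10 and 0.85 ± 0.10 above (adjusted p = 2.64e-06 and 3.14e-05). From day 4 to day 10 neither was called in either genotype, although quantile scaling (-0.30) and the fit without shScr day 4 replicate 2 (-0.38) called SPRED2 lower in shScr cells (limma, adjusted p over 23 alternatives, 0.0287 to 0.448).

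**Figure D2:**
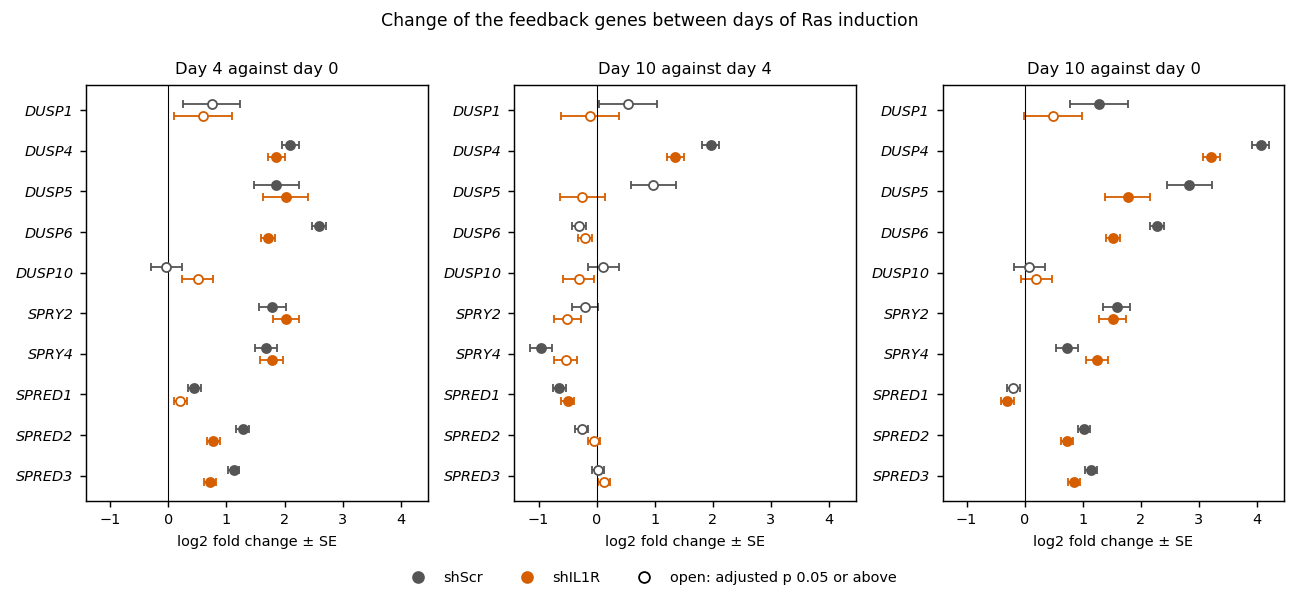
Log2 fold change (x axis, with bars of ± 1 SE from limma) of each gene for day 4 against day 0, day 10 against day 4 and day 10 against day 0, in shScr (grey) and shIL1R (orange) cells; filled points passed an adjusted p of 0.05. DUSP4 reaches 4.06 in shScr cells at day 10 against day 0, whereas SPRY4 and SPRED1 lie left of zero from day 4 to day 10.

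Per kilobase of merged exon sequence (GENCODE 29), the order of the levels changed over the days. In growing shScr cells DUSP1 was highest, with 1480 ± 20.6 normalized counts per kb (SD, n = 2), followed by SPRY4 (744 ± 89.8), SPRY2 (735 ± 37.4), DUSP5 (697 ± 11.3) and DUSP6 (446 ± 0.949). DUSP10 (304 ± 11.7), SPRED1 (254 ± 21.9), SPRED2 (237 ± 2.24), SPRED3 (124 ± 5.92) and DUSP4 (21.0 ± 2.15) came after them. Only SPRY4 and SPRY2, and SPRED1 and SPRED2, overlapped with their neighbour in this order. At day 4 the 5 highest, DUSP1, DUSP6, DUSP5, SPRY2 and SPRY4, overlapped each with the next, at means of 2424 to 2703 per kb.

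In senescent shScr cells DUSP5 led, with 5072 ± 1414 normalized counts per kb (SD, n = 2), ahead of DUSP1 (3622 ± 569), SPRY2 (2209.9 ± 37.0) and DUSP6 (2171 ± 86.9), of which the last 2 overlapped. The libraries of DUSP5 (lowest 4072) and DUSP1 (highest 4024) were only just separate. SPRY4 followed with 1232 ± 99.1 and SPRED2 with 483 ± 43.4. DUSP4 had 354 ± 46.6, above DUSP10 (320.4 ± 0.0773), SPRED3 (274 ± 2.08) and SPRED1 (220.5 ± 11.4). So DUSP4 moved from the lowest of the 10 at day 0 to the seventh, and SPRED1 from the seventh to the lowest. SPRED1 and SPRED2, which overlapped in growing cells, were separate here. In senescent shIL1R cells DUSP1 (2971 ± 2307) and DUSP5 (2906 ± 1788) overlapped each other, and DUSP4 (210.1 ± 33.5) overlapped SPRED1 (208 ± 17.4).

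At day 0 no member passed between the genotypes. Limma, edgeR and DESeq2 each called 0 of 10 (0.0646% of genes called by limma, 138 of 13924 by DESeq2). An unadjusted limma p below 0.05 was found for 1 member and for 1187 of the 13924 tested genes. At day 4 limma and edgeR called 0 and DESeq2 called 1 (0.28% of genes called by limma, 476 of 13924 by DESeq2). Here 3 members and 2540 of the tested genes had an unadjusted limma p below 0.05. At day 10 limma called DUSP4 alone, lower in shIL1R cells (4.85% of genes lower, 9.21% either way). The median log2 difference of the members was 0.10 at day 0, -0.19 at day 4 and -0.29 at day 10, against -0.010, -0.00055 and -0.0034 over all tested genes. The groups did not overlap, with shIL1R lower, in 5 members at day 4 (27.3% of genes) and in 5 at day 10 (25% of genes).

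DUSP4 was the member that differed most clearly in senescent cells, with 1697 and 1353 normalized counts in shIL1R libraries against 2809.7 and 2331 in shScr libraries, so both were below both. The difference was -0.76 ± 0.14 log2 units (limma, adjusted p = 0.0117). Among other settings, it lost its call without shScr day 10 replicate 1 (-0.62), shScr day 10 replicate 2 (-0.89) or shIL1R day 10 replicate 2 (-0.59), and with the compared groups fitted alone, with adjusted p from 4.95e-05 to 0.105 over 23 alternatives. It was lower under all 23, though the fits without a library of another group could not move the value.

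The DUSP6 libraries of shIL1R lay below those of shScr on the later days and above them at the start. On day 4 it had 9730.5 and 7976 normalized counts in shIL1R libraries against 13700.5 and 11278 in shScr libraries, with both below both, a difference of -0.50 ± 0.12 log2 units (limma, adjusted p = 0.0869). In senescent cells the difference was -0.39 ± 0.12 (adjusted p = 0.0627). In growing cells the order was the opposite, with 2525 and 2833 against 2063 and 2069 (0.37 ± 0.12, adjusted p = 0.374). DESeq2 called both later days, and limma called day 4 without either shIL1R day 10 library and day 10 without replicate 1 (adjusted p over 23 alternatives, 0.0119 to 0.523 and 0.0271 to 0.324).

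The change from day 0 was then compared between the genotypes directly, as an interaction. At day 10 DUSP6 alone was called (1.54% of genes lower, 2.41% either way): its rise was smaller in shIL1R cells by a log2 difference of -0.76 ± 0.17 (limma, adjusted p = 0.0412). For DUSP4 the same difference was -0.85 ± 0.20 (adjusted p = 0.0555), and DESeq2 called it (0.0131, against 0.00749 to 0.235 over 23 alternatives). At day 4 limma and edgeR called 0 members and DESeq2 1, DUSP6 (0.0287% of genes called by limma, 101 of 13924 by DESeq2). An unadjusted limma p below 0.05 was found for 3 members and for 1525 of the tested genes. The day 4 value of DUSP6 was -0.87 ± 0.17 (limma, adjusted p = 0.169, and 0.00198 to 0.83 over the alternatives). Its call at day 10 was lost, among other settings, with no filter on low values and without any one library of shScr day 0, shIL1R day 0 or shScr day 10, or shIL1R day 10 replicate 2 (-0.85 to -0.68, adjusted p over 23 alternatives, 0.00244 to 0.193).

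**Figure D3:**
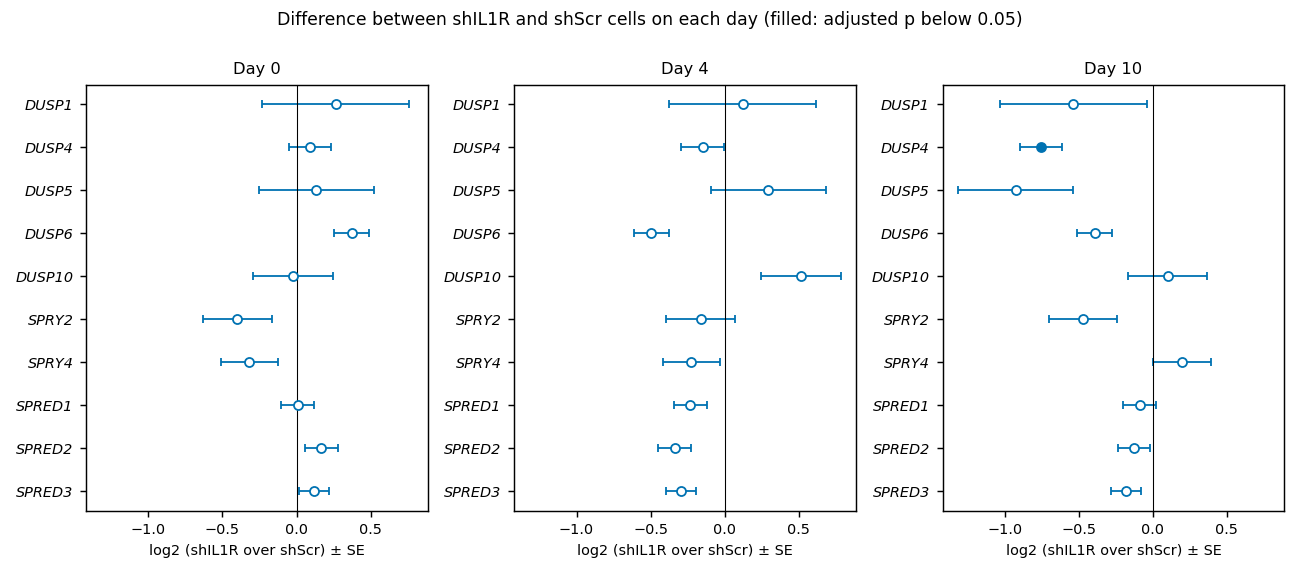
Log2 difference between shIL1R and shScr cells (x axis, with bars of ± 1 SE from limma) for each of the 10 genes at days 0, 4 and 10; filled points passed an adjusted p of 0.05. Only DUSP4 at day 10 is filled, at -0.76, and DUSP6 lies right of zero at day 0 and left of it on the later days.

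The shIL1R day 10 libraries differed from each other more than any other pair, with a median absolute log2 difference over all tested genes of 0.252, against 0.10 to 0.152 in the other groups. Without shIL1R day 10 replicate 1, the log2 difference between genotypes at day 10 was -1.43 for DUSP1, -0.92 for DUSP4 and -1.60 for DUSP5. DUSP6 was at -0.47 and SPRY2 at -0.80. The highest values with any single library left out were 0.35, -0.59, -0.25, -0.31 and -0.14 in the same order. Over all tested genes the calls went from 1283 to 3521 without replicate 1, to 621 without replicate 2 and to 115 without shScr day 10 replicate 2. For the interaction at day 10, the values without shIL1R day 10 replicate 1 were -1.69 for DUSP1, -1.01 for DUSP4 and -1.73 for DUSP5. Their highest values with any single library left out were 0.091, -0.68 and -0.39.

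Other values differed between those libraries too. Replicates 1 and 2 of shIL1R day 10 had 37518 and 25280.1 normalized counts of HRAS, the Ras gene named for the Harvey sarcoma virus, against 51791 and 50789 in shScr libraries. That genotype difference was -0.74 ± 0.17 log2 units (limma, adjusted p = 0.0257). Their proliferation genes summed to 1442 and 3857 and their fibroblast markers to 466619 and 667656, while IL1R1 was alike at 295 and 279.9. On day 4 HRAS had 19278 and 15523 normalized counts in shIL1R libraries against 29774 and 23750 in shScr libraries. The day 0 values of HRAS were 41321 and 41405 against 43044 and 43386. The labels do not say which Ras the fusion carries, so whether its reads count as HRAS is not given. The part of any of these in the members' differences was not tested.

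Members also differed within pairs in one direction. Replicate 1 was the higher library for 8 of 10 members in shScr day 4, 9 in shIL1R day 4 and 9 in shIL1R day 10, but for 2, 3 and 2 in shScr day 0, shScr day 10 and shIL1R day 0. DUSP1 differed by 1.22 log2 units in shScr day 4 and 1.78 in shIL1R day 10, and DUSP5 by 1.00 and 1.35, which is beyond the 95th percentile of all tested genes in those groups (0.806 and 1.22). Among 22 ERK-responsive genes, replicate 1 was higher for 17, 19 and 18 in the same 3 groups, and for 10, 9 and 11 in the others. The share of all tested genes higher in replicate 1 was not counted, so these counts have no background to be read against.

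**Figure D4:**
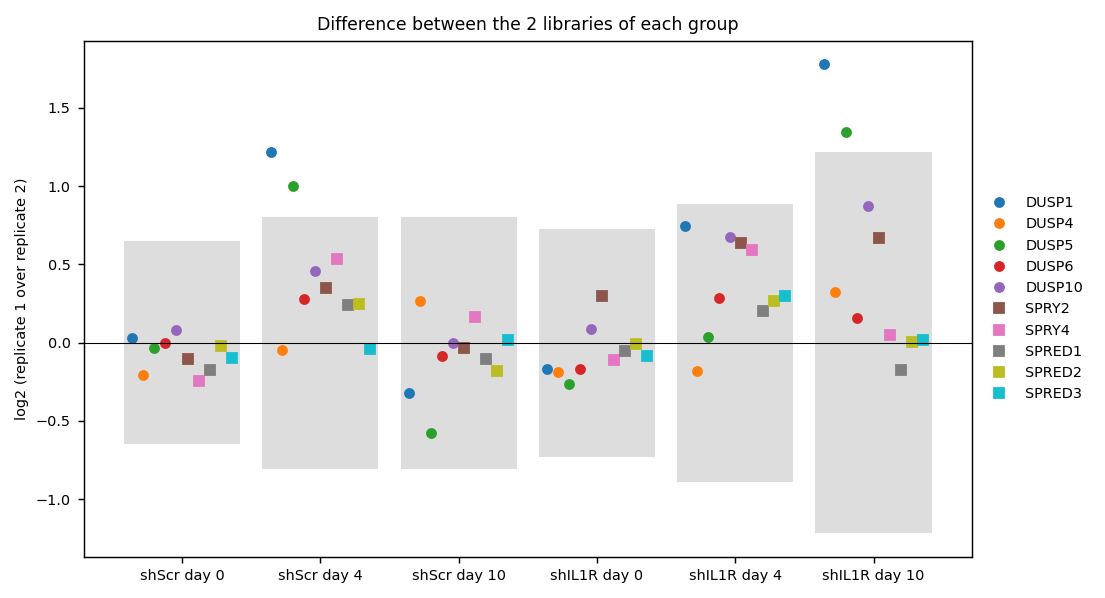
Log2 ratio of replicate 1 over replicate 2 (y axis) for each of the 10 genes in each group; the grey bands span ± the 95th percentile of the absolute difference over all tested genes. DUSP1 and DUSP5 lie above the band in shScr day 4 and shIL1R day 10, and most members lie above zero in both day 4 groups.

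The genes around the members were described from lists of pathway genes. Of 12 other feedback inhibitors 10 were tested, and 6 rose and none fell in shScr cells from day 0 to day 10 (32.5% of all tested genes rose and 31.3% fell). ERRFI1, an inhibitor of the EGF receptor, rose by 1.93 ± 0.21 log2 units, DUSP16, a JNK and p38 phosphatase, by 1.47 ± 0.15, and DUSP8, of the same class, by 0.88 ± 0.30 (limma, adjusted p = 1.53e-05, 6.26e-06 and 0.0226). DUSP2, a nuclear phosphatase, had 1 read in each shScr day 0 library and 48.4 and 51.6 normalized counts at day 10. The list's median was 0.58, against 1.21 for the members and 0.0057 over all genes. At day 10, 3 of the 10 were lower in shIL1R cells (4.85% of genes) and none was higher, with DUSP16 (-0.97, adjusted p = 0.00456) and ERRFI1 (-0.79, adjusted p = 0.0441) lowest.

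Of 22 tested ERK-responsive transcription factors and growth factors, 18 rose and 3 fell in shScr cells by day 10 (32.5% and 31.3% of genes), with a median of 0.91. EGR3, a zinc finger factor induced by ERK, rose from 6.43 and 2.5 normalized counts to 151 and 115, and FOSB, an AP-1 subunit, by 3.40 ± 0.46 log2 units. EGR2, a relative of EGR3, went from 2.76 and 3.34 to 349 and 333. LIF, an interleukin-6 family cytokine, rose from 516 and 432 to 10845 and 12566 in shScr cells but had 2908 and 2733 in shIL1R cells at day 10. That genotype difference was -2.05 ± 0.17 (limma, adjusted p = 0.000135). The growth factor EREG differed by -1.26 ± 0.29 (adjusted p = 0.0229), and in all 3 of these genes were lower and 1 higher in shIL1R cells at day 10 (4.85% and 4.37% of genes).

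In the Ras to ERK relay itself, 6 of 22 genes rose and 7 fell in shScr cells by day 10, with a median of 0.15. Those shares are near the 32.5% and 31.3% of all tested genes. The adaptor SHC1 rose by 1.46 ± 0.09 log2 units and MAPK3, which encodes ERK1, by 1.01 ± 0.08, while NRAS fell by 1.12 ± 0.13 (limma, adjusted p = 2.2e-07, 1.18e-06 and 1.67e-05). Of 12 p38 and JNK pathway genes 4 rose and 4 fell, again near the shares of all genes, among them the p38 isoform MAPK13 (2.57 ± 0.12) and its activator MAP2K6 (-2.01 ± 0.38). Of 11 tested receptor tyrosine kinases 1 rose, EGFR (0.88 ± 0.21), and 6 fell, with MET (-2.06 ± 0.14) the furthest down, against 32.5% and 31.3% of all genes. All 7 proliferation genes fell, with a median of -5.08.

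Genes whose 6 group means ran closest to a member's were ranked by the root mean square difference of centred log2 group means, over the 11310 genes averaging 50 normalized counts or more. For DUSP4 these were DIO2 (0.185), CA9 (0.222) and PAPPA (0.228). For DUSP6 they were FZD8 (0.135), IL13RA2 (0.142) and STC1 (0.205), and for SPRY4 GALNT6 (0.0896), RGS20 (0.115) and ITGA2 (0.125). Of the members, SPRED2 and SPRED3 ran closest to each other, at 0.0955. DUSP1 came next, 0.192 from SPRED3 and 0.246 from SPRED2, before DUSP6 and SPRY2 at 0.284. The measure is not scaled to the size of a gene's changes.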

How the data were processed

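Strand-specific RNA-seq libraries were made from total RNA, per the labels' protocols. Per the submitters' processing notes the authors used hg19, TopHat, HTSeq and DESeq2; no versions, annotation or strand setting are given in the sources used here. The deposited values are normalized counts per gene, a signal of reads divided by a library factor. Whole reads were recovered from their steps (100% of values whole within 0.001 reads), and the edgeR and DESeq2 tests used them. All 12 sample columns were used, and 0 columns of other samples were found.

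Genes with at least 10 normalized counts in 2 libraries were tested, 13924 in all, with 6344 of 27106 at 0 everywhere. The fit was limma 3.58.1 (R 4.3.3) on log2(value + 1), with 6 group means over 12 libraries, on 11 contrasts, and eBayes took a trend in the mean (residual degrees of freedom 6, prior 4.98). Two-sided p-values had a Benjamini-Hochberg adjustment over all tested genes, with 0.05 as the threshold. The 2 libraries of a group give 1 degree of freedom, so precision rests on pooling the spread.

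All members are named. Of other lists, IL1R1 and HRAS are named, with up to 4 called genes of largest change in shScr day 10 against day 0 and up to 2 per genotype comparison; one gene named by this rule is not reported here. For each member the 3 closest genes were ranked. Members and lists were chosen with earlier results of these data known. Alternatives were pseudocounts of 0.5 and 5, no filter, a filter of 50, TMM (edgeR 4.0.16) and quantile scaling, replicate blocks, the compared groups alone, edgeR, DESeq2 1.42.0, and each library left out. The code was tested on simulated data. Merged exon lengths came from GENCODE 29 on GRCh38, which may differ from the authors' annotation.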

Additional observations from a re-analysis of the deposited data

Results flagged for a closer look

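DUSP6 stood out because its change from day 0 to day 10 differed between the genotypes by a test of the difference itself. The rise was 2.28 ± 0.12 log2 units in shScr cells and 1.52 ± 0.12 in shIL1R cells, a difference of -0.76 ± 0.17 (limma interaction, adjusted p = 0.0412). The 2 shIL1R day 0 libraries (2525 and 2833 normalized counts) were above the shScr ones (2063 and 2069), and the shIL1R day 10 libraries (8085 and 7254) were below (9771 and 10339.8), so both days enter the difference. The call was lost in 7 of 12 fits with a single library left out, and with no filter on low values (adjusted p = 0.0711, and 0.00244 to 0.193 over 23 alternatives). No rule for outlying libraries was applied, since groups of 2 cannot be tested that way.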

How the results depend on the processing

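Of 1210 comparisons of a member's value with another setting for all libraries, 1177 kept their direction and their side of the threshold, 11 lost a call, 17 gained one and 5 changed sign. With single libraries left out, 1227 of 1320 kept both, 23 lost a call, 29 gained one and 41 changed sign. None of the sign changes involved a value that was called in either fit, and the cause of none was tested. A fold change does not move when the library left out is outside the compared groups. In many of these fits the direction was therefore fixed. Among the settings for all libraries, both pseudocounts and the filter of 50 each kept all 110 values. The lowest member value was 141 normalized counts, so these settings could move the members little. Only 38 of the 110 values were called in the main fit. An uncalled value counts as kept whenever it stays uncalled with the same sign. Day 4 against day 0 called 7 to 8 members in shScr cells with single libraries left out.

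Counts of called members moved with the setting, and calls over all 13924 tested genes moved in some of the same fits. A moved count is therefore not by itself a result about the members. With the compared groups alone, all-gene calls went from 5000 to 1901 for day 10 against day 4 in shIL1R cells. For the genotypes at day 10 they went from 1283 to 73, and to 272 with a replicate block within genotype. The interaction at day 10 went from 336 to 802 with DESeq2 and to 216 with no filter. For day 10 against day 4, shScr cells went from 3 to 5 with quantile scaling, and shIL1R cells from 2 to 4 with a replicate block over all libraries and to 1 with the compared groups alone. For shIL1R against shScr, DESeq2 gave 1 at day 4 and 2 at day 10, and at day 10 the compared groups alone gave 0 and a replicate block within genotype gave 0. For the interaction, DESeq2 gave 1 at day 4 and 2 at day 10, and at day 10 no filter gave 0 and a replicate block within genotype gave 0. With single libraries left out the counts ran from 3 to 5 (shScr) and 1 to 5 (shIL1R) for day 10 against day 4, from 0 to 1 for the genotypes at day 4, from 0 to 5 at day 10, and from 0 to 4 for the interaction at day 10. A fit with 1 library left in a group assumes that it varies like the other groups.

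The labels do not say that a replicate number ties libraries together. Deviations of same-numbered libraries correlated from -0.10 to 0.23 over 15 pairs of groups, above 0.1 in 4 (in 3 of the 6 within a genotype). The highest were within shIL1R, at 0.23 for days 0 and 4 and 0.20 for days 4 and 10, with 0.053 for days 0 and 10. Between genotypes the highest was 0.19 (shScr day 4 with shIL1R day 10). The numbers were not taken as pairs, but whether they mark a hairpin in shIL1R cells is not given and was not tested. With a replicate block within genotype, DUSP4 at day 10 between genotypes had an adjusted p of 0.0722, the DUSP6 interaction at day 10 one of 0.0595 and SPRED1 in shIL1R cells at day 10 against day 0 one of 0.0588 (limma). In shIL1R cells from day 4 to day 10, SPRY2 was called with that block (0.014) and with the block over all libraries (0.045), and SPRY4 with the latter (0.0434). Under the block within genotype DUSP10 at day 0 (0.16) and SPRY2 at day 4 (0.070) changed sign between genotypes.

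SPRED3 from day 4 to day 10 in shScr cells was -0.00064 with quantile scaling, and DUSP1 in shIL1R cells over the same days was 0.078 with edgeR and 0.095 with DESeq2. These log2 values, none called with all libraries, changed sign with a single library left out, and their ranges follow. For day 4 against day 0 in shScr: DUSP10 -0.27 to 0.19. For day 10 against day 4 in shScr: DUSP1 -0.070 to 1.15, DUSP10 -0.12 to 0.34, SPRED3 -0.00050 to 0.038. For day 10 against day 4 in shIL1R: DUSP1 -1.01 to 0.77, DUSP10 -0.74 to 0.13, DUSP5 -0.92 to 0.43, SPRED2 -0.18 to 0.087, SPRED3 -0.018 to 0.28. For day 10 against day 0 in shIL1R: DUSP1 -0.41 to 1.37, DUSP10 -0.24 to 0.64. For shIL1R against shScr at day 0: DUSP10 -0.068 to 0.020, DUSP4 -0.013 to 0.19, DUSP5 -0.00022 to 0.27, SPRED1 -0.079 to 0.097. For shIL1R against shScr at day 4: DUSP1 -0.49 to 0.73, DUSP5 -0.21 to 0.80, SPRY2 -0.48 to 0.16, SPRY4 -0.52 to 0.071. For shIL1R against shScr at day 10: DUSP1 -1.43 to 0.35, DUSP10 -0.34 to 0.54. For the interaction at day 4: DUSP1 -0.75 to 0.47, DUSP5 -0.34 to 0.66, SPRY2 -0.082 to 0.56, SPRY4 -0.20 to 0.39. For the interaction at day 10: DUSP1 -1.69 to 0.091, DUSP10 -0.31 to 0.56, SPRY2 -0.40 to 0.26.

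Over all tested genes, the genotype comparison at day 10 called 73 with the compared groups alone, 272 with a replicate block within genotype and 821 or 817 without shScr day 0 replicate 1 or 2. At day 4 it called 39, against 476 with DESeq2 and 738 or 739 without shIL1R day 10 replicate 1 or 2, and at day 0 it called 9, against 138 with DESeq2. The interaction at day 10 called 336, against 802 with DESeq2, 156 with the compared groups alone, 216 with no filter and 2123 without shIL1R day 10 replicate 1. The one at day 4 called 4, against 101 with DESeq2. Day 10 against day 4 in shIL1R cells called 5000, against 1901 with the compared groups alone. Day 4 against day 0 called 5326 in shScr cells, against 3332 without shScr day 0 replicate 2, and 5627 in shIL1R cells, against 3624 without shIL1R day 0 replicate 1.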
